A study of Homo sapiens with 30 samples.

Results

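VIM and VIM-AS1 are 2 overlapping genes on opposite strands of chromosome 10, and they are described here over 18 global run-on libraries and 15 peak lists from HT1080, a human fibrosarcoma cell line. They were picked by symbol as 2 of the 26475 genes of the deposited count table. The pair was chosen because VIM-AS1 was known to have far more counts than VIM in repeats 1 and 2 of the run-on, so that imbalance is given below as a description and was not tested. In a global run-on, nuclei extend engaged transcripts with a brominated nucleotide, and the RNA pulled down with an anti-BrdU antibody is sequenced.

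The run-on libraries form 6 groups of 3 repeats. They are hNABP2 KO with NTP, hNABP1 KO with NTP and WT with NTP, and the same genotypes labelled as having no NTP, the nucleotides that extension needs. NABP2 encodes hNABP2, also called hSSB1, and NABP1 encodes its paralogue hNABP1, or hSSB2; both bind single-stranded DNA within the SOSS complex. All groups were HT1080 cells at passages 10 to 15 with no other treatment, and the sources used here do not say how the knockouts were made or how many clones there were. The other libraries are 4 of ChIP-seq from WT cells, of which the 2 with a homemade anti-hNABP2 antibody had peak lists used here, and 8 of DRIP-seq, a pulldown of RNA:DNA hybrids with antibody S9.6. The DRIP peak lists used here are the 4 without RNase H, from hNABP2 KO and WT cells. The labels speak of 2 independent experiments but number 3 repeats, so n, SD and p below count libraries, whose spread may be technical.

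VIM encodes vimentin, the intermediate filament protein of mesenchymal cells, which is abundant in fibroblasts and sarcomas and rises when epithelial cells take on a mesenchymal state. VIM-AS1 is a long non-coding RNA gene that starts inside VIM and is transcribed away from it, head to head with the VIM promoter. In colon cancer cells the antisense transcript is known to form an R loop, an RNA:DNA hybrid with a displaced DNA strand, near the VIM start. The libraries were made with a directional kit that marks the second strand, but the sources used here do not give the strand setting of the counting. A count listed for VIM-AS1 therefore cannot be told apart from a count of VIM where the genes overlap.

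In the RefSeq annotation of GRCh38.p14, VIM spans chr10:17228241-17237593 on the plus strand (9353 bases) and VIM-AS1 chr10:17214239-17229985 on the minus strand (15747 bases). They share 1745 bases. The promoter windows at the RefSeq start of each gene are shown because an anti-hNABP2 ChIP peak covered much of that of VIM-AS1 and none touched that of VIM. The RefSeq start of VIM lies upstream of the start of its main transcript in the deposited annotation (17229278), where the strongest peak was found, and the window at that main start is not shown. Each window runs from 250 bases before to 50 bases after the RefSeq start and is written 5′ to 3′ on the gene's own strand. Capitals mark GGGCGG, the core of a GC box.
VIM-AS1 promoter, chr10:17229936-17230235, minus strand: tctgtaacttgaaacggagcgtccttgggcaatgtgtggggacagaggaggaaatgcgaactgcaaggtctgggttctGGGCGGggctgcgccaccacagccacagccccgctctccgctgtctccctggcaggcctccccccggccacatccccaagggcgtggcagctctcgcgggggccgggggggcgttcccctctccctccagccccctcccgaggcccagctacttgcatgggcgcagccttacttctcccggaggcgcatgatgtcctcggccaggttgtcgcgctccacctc
VIM promoter at the upstream RefSeq start, chr10:17227991-17228290, plus strand: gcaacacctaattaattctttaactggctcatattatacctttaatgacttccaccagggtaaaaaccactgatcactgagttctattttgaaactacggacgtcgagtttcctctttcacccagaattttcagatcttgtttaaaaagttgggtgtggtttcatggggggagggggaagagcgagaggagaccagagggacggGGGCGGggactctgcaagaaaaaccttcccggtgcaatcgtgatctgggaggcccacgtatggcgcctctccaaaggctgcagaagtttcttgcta

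The VIM-AS1 window lies inside VIM, has a GC content of 68% and holds 20 CpG dinucleotides. The window at the upstream VIM start has a GC content of 48% and 10 CpG. Over all 35116 RefSeq promoter windows of this length the medians were 58.7% GC and 14 CpG. Each window held 1 match to GGGCGG, which 45.0% of all windows held on either strand. The CCAAT box letters were found in neither window on either strand, and 34.6% of all windows held them. The TATA box letters TATAAA, which 11.5% of all windows held, were found in neither, nor was the AP-1 motif TGANTCA, which 7.71% held. A further RefSeq start of VIM-AS1 has its window at chr10:17226849-17227148, with 54.3% GC and 7 CpG. Unlike the windows shown, it held the AP-1 motif TGANTCA and, on the reverse strand, the CCAAT letters. It held neither GGGCGG nor TATAAA. No peak lay in it, and its sequence is not shown.

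Library totals were 5272 to 19581 counts in repeats 1 and 2 and 19247 to 164357 in repeat 3. The library of hNABP1 KO with no NTP in repeat 3 stood with repeats 1 and 2 and not with the other 5 libraries of repeat 3: its antisense genes held 59.9% of the counts of 864 other pairs of a gene and its -AS1 gene, against 35.1% to 47.4% in those 5 libraries and 55.6% to 73.8% in the 12 libraries of repeats 1 and 2. Some values that rest on it are given with and without it. Group means, the repeat 3 shares of other pairs and the genes most alike are given only with it. The knocked-out genes themselves had few counts and did not settle the genotypes: with NTP, NABP2 had 4, 3 and 15 counts in hNABP2 KO repeats 1 to 3, against 4, 0 and 8 in WT, and NABP1 had 0, 1 and 18 in hNABP1 KO, against 1, 0 and 19 in WT. Mesenchymal markers, COL5A1 and THBS1 first among them, held 0.119% to 4.17% of a library, and 6 epithelial markers 0% to 0.0270%. COL1A1 and COL1A2, the type I collagen genes, had 43 and 12 counts over all libraries. COL5A1 alone made 2806 of the marker counts, 988 of them in hNABP1 KO with no NTP in repeat 3. Leukocyte markers held 0% to 0.0208%, with LYZ at 0 throughout, and neural markers 0% to 0.0460%.

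VIM-AS1 was among the most counted genes of every library. It ranked first by counts in 4 libraries, all of repeat 1, and no lower than 24th in any of the 18. In repeat 1 with NTP it had 596 counts in hNABP2 KO, 508 in hNABP1 KO and 522 in WT, and with no NTP 1043, 602 and 627. In repeat 2 it had 103, 127 and 131 counts with NTP and 162, 100 and 115 with no NTP, in the same order of genotypes. In repeat 3 it had 143, 119 and 101 counts with NTP and 145, 816 and 104 with no NTP. Scaled by library total to counts per 1000000 (CPM), this level fell into layers by repeat, whatever the genotype.

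In repeat 1 the VIM-AS1 level with NTP was 30438 CPM in hNABP2 KO, 45803 CPM in hNABP1 KO and 43569 CPM in WT, and with no NTP it was 98919, 89918 and 68004 CPM in the same genotypes. In repeat 2 the levels lay close together, at 15651, 16815 and 22268 CPM with NTP and 19293, 15689 and 21813 CPM with no NTP. In repeat 3 they were 1234, 1030 and 615 CPM with NTP and 1826, 34192 and 5403 CPM with no NTP. On library totals, all 6 libraries of repeat 1 lay above all 6 of repeat 2, and 5 of the 6 libraries of repeat 3 lay below both. The remaining library, hNABP1 KO with no NTP, lay within the range of repeat 1. On TMM-scaled library sizes repeat 1 still lay above repeat 2, but repeats 2 and 3 were not fully separate. There WT with no NTP in repeat 3 stood at 39568 CPM, within the 32182 to 50312 CPM of repeat 2. The library of hNABP1 KO with no NTP in repeat 3 stood at 88221 CPM, between repeats 1 and 2. The other libraries of repeat 3 lay below repeat 2, at 12466 to 28509 CPM. In such bulk libraries, fewer cells transcribing a gene and less transcription per cell cannot be told apart. As a share of the whole library VIM-AS1 took between 0.0615% (exact Clopper-Pearson 95% interval 0.0501% to 0.0747%, WT with NTP in repeat 3) and 9.89% (9.33% to 10.5%, hNABP2 KO with no NTP in repeat 1). These intervals cover counting error only.

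VIM, the protein-coding member, had few counts in every library, but in several it ranked high among the 26475 genes. By counts, with ties taking the best place, it stood 17th in WT with no NTP in repeat 3. Where it had a count it stood no lower than 1660th, in hNABP2 KO with no NTP in repeat 3. With NTP it had 17, 6 and 9 counts in repeat 1 in hNABP2 KO, hNABP1 KO and WT, 3, 6 and 0 in repeat 2, and 15, 47 and 36 in repeat 3. With no NTP it had 5, 4 and 16 counts in repeat 1, 1, 1 and 1 in repeat 2, and 9, 7 and 31 in repeat 3. The highest levels were found in WT with no NTP, at 1735 CPM in repeat 1 and 1611 CPM in repeat 3, and the next was 868 CPM in hNABP2 KO with NTP in repeat 1. The single library without a VIM count, WT with NTP in repeat 2, allows up to 510 CPM at 3 counts of its total.

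**Figure D1:**
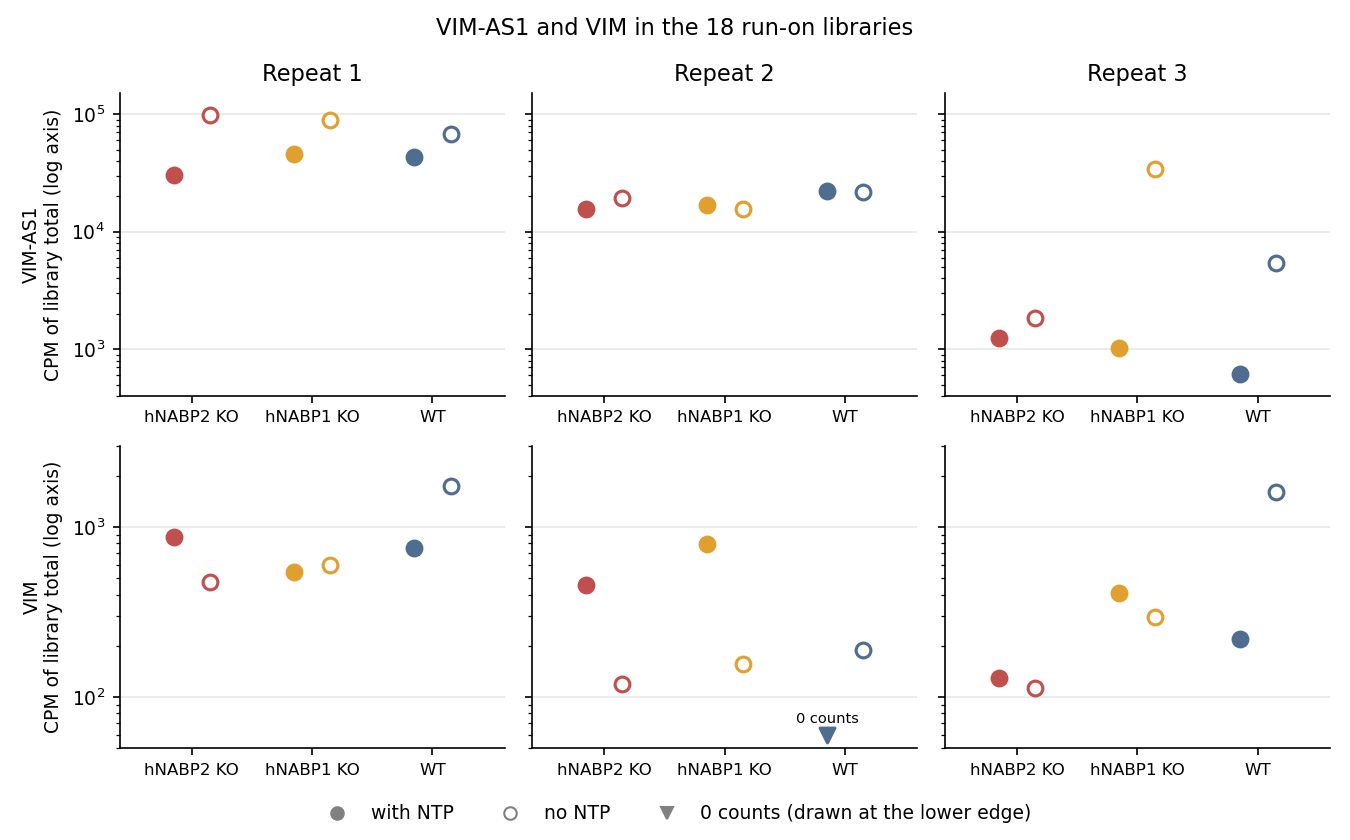
Levels of VIM-AS1 (upper row) and VIM (lower row) in CPM on log axes, in each of the 18 run-on libraries, by repeat and genotype, with NTP (filled) and with no NTP (open). On library totals VIM-AS1 separates the repeats, from 30438 to 98919 CPM in repeat 1 to 615 to 5403 CPM in 5 libraries of repeat 3. The library of hNABP1 KO with no NTP in repeat 3 stands at 34192 CPM.

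Set against gene length, VIM-AS1 was above VIM in all 18 libraries. Its level per kilobase of annotated span ran from 39.0 to 6282 CPM per kb, and that of VIM from 0 to 186 CPM per kb. The pair came closest in repeat 3 with NTP, at 65.4 against 43.5 CPM per kb in hNABP1 KO and 39.0 against 23.4 CPM per kb in WT. Ranked per kilobase among 23749 genes with an annotated span, VIM-AS1 stood between the 5th and the 515th place. Span includes introns, and the sources used here do not say whether introns were counted. The genes around the pair had next to no counts: per library TRDMT1, an RNA methyltransferase gene, had 0 to 15, CUBN, the cubilin receptor gene, 0 to 14, ST8SIA6, a sialyltransferase gene, 0 to 4 and ST8SIA6-AS1 0 to 1.

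The antisense share, VIM-AS1 counts over those of both genes, was near its ceiling in repeats 1 and 2. In repeat 1 it was 97.2% in hNABP2 KO, 98.8% in hNABP1 KO and 98.3% in WT with NTP, and 99.5%, 99.3% and 97.5% with no NTP. In repeat 2 it was 97.2%, 95.5% and 100% with NTP and 99.4%, 99.0% and 99.1% with no NTP. In repeat 3 it was 90.5% in hNABP2 KO, 71.7% in hNABP1 KO and 73.7% in WT with NTP, and 94.2%, 99.1% and 77.0% with no NTP. Apart from hNABP1 KO with no NTP, each library of repeat 3 thus lay below each library of repeats 1 and 2, and within repeat 3 both hNABP2 KO libraries lay above both WT libraries. In sum VIM-AS1 had 4636 counts and VIM 69 in repeats 1 and 2 (98.5% antisense), and 1428 and 145 in repeat 3 (90.8%). Without hNABP1 KO with no NTP the sums of repeat 3 were 612 and 138 (81.6%).

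The share over other pairs of a gene and its -AS1 gene also differed by repeat. The VIM pair held 6278 counts, 10.7% of those of all 865 pairs, and the next pair, MZF1 and MZF1-AS1, 637. Among the pairs next in counts, MIF-AS1, opposite the cytokine gene MIF, had a share of 97.3% in repeats 1 and 2 and 78.7% in repeat 3. MZF1-AS1, opposite a zinc finger gene, had 63.9% and 58.9%. THAP7-AS1, opposite the gene THAP7, had 40.7% and 55.5%, and TTN-AS1, opposite the giant muscle protein gene TTN, had 1 count against 291 of TTN in repeats 1 and 2, a share of 0.342%, and 6.02% in repeat 3. Over pairs with 10 or more counts the median share was 68.0% in repeats 1 and 2 (293 pairs), where 18 pairs (6.14%) stood at or above VIM, and 32.4% in repeat 3 (764 pairs), where 11 (1.44%) did. Repeat 3 here includes hNABP1 KO with no NTP. Without it the VIM share was 81.6%, and the other pairs at or above that share were not counted. With all libraries VIM thus lay near the top of a distribution that itself differed between repeats. Depth, repeat and share move together here, and the part of each was not tested.

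**Figure D2:**
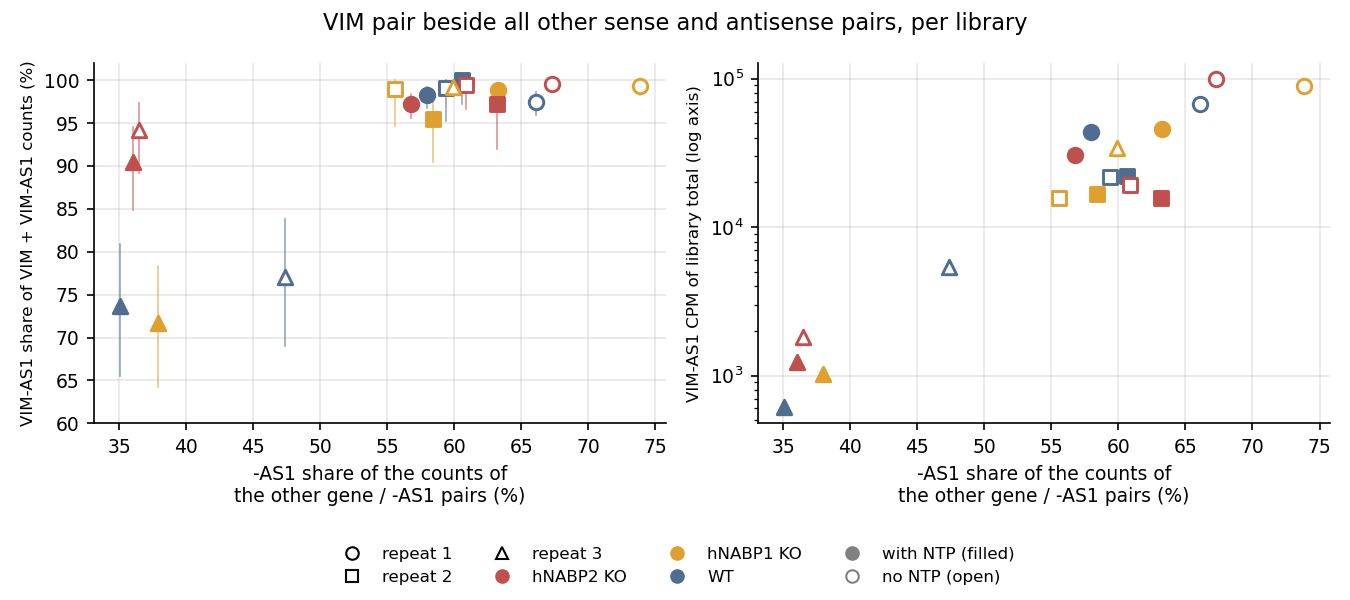
Each of the 18 run-on libraries by the antisense share of all other gene and -AS1 pairs (x axis, percent of counts) against the VIM-AS1 share of the VIM pair (left, percent, bars are exact 95% intervals for counting error) and the VIM-AS1 level (right, CPM on a log axis). The triangles of repeat 3 sit at 35.1% to 47.4% on the x axis and the libraries of repeats 1 and 2 at 55.6% to 73.8%, with the triangle of hNABP1 KO with no NTP among them at 59.9%.

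The first comparison asks whether loss of hNABP2 changes nascent transcription of the pair. Neither gene differed beyond the spread between libraries. VIM-AS1 averaged 15774 ± 14602 CPM in hNABP2 KO and 22150 ± 21478 CPM in WT with NTP (SD, n = 3 each); the KO library was at 0.699 times WT in repeat 1, 0.703 times in repeat 2 and 2.01 times in repeat 3. Its log2 fold change was -0.30 (SE 1.15, 95% interval -2.85 to 2.25, adjusted p = 0.990 by edgeR). VIM averaged 484 ± 370 CPM in hNABP2 KO and 323 ± 386 CPM in WT, with a log2 fold change of 0.50 (SE 1.22, -1.90 to 2.89, adjusted p = 1.00 by edgeR). EdgeR called 0 of 129 genes (0%) among those that passed its expression filter, with 0 at an unadjusted p under 0.05, and 0 of 13447 (0%) among genes with 10 or more counts, with 41; DESeq2 and limma voom called 0 on both sets, here and in each comparison that follows. VIM did not pass the expression filter, so its tests come from the wider set. With the repeat number as a block the spread was smaller. VIM-AS1 then lay at -0.13 (SE 0.695, -1.58 to 1.32, adjusted p = 0.977 by edgeR) and VIM at 0.32 (SE 0.666, -0.99 to 1.62). The block called 0 of 129 genes (0%) and 0 of 13447 genes (0%). The groups of both members overlapped, where 2.07% of all genes did not overlap. Both signs rest on single libraries: VIM-AS1 lay at 1.14 without WT repeat 1 and 0.16 without hNABP2 KO repeat 3, and VIM at -0.63 without hNABP2 KO repeat 1 and -0.11 without WT repeat 2. With 1 of 5 libraries left out VIM passed the expression filter, and on that set it lay at -0.72 without WT repeat 2, -0.17 and -0.16 without hNABP1 KO repeat 2 or 1, -0.04 without WT repeat 1 and 0.21 without hNABP2 KO repeat 2.

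The paralogue was set against WT in the same fit, so both comparisons share the WT libraries. VIM-AS1 averaged 21216 ± 22709 CPM in hNABP1 KO, against the 22150 CPM of WT, and was at 1.05, 0.755 and 1.68 times WT in repeats 1 to 3. Its log2 fold change was -0.02 (SE 1.15, -2.57 to 2.54, adjusted p = 1.00 by edgeR), a value that turned positive with RLE size factors (0.05), without TMM (0.09) and in DESeq2 (0.05). VIM averaged 581 ± 197 CPM in hNABP1 KO, with a log2 fold change of 0.87 (SE 1.22, -1.51 to 3.25, adjusted p = 0.999 by edgeR), and was the higher in KO in repeats 2 and 3. The expression filter left 129 genes with 0 calls (0%) and 1 unadjusted p under 0.05, and the wider set 0 calls (0%) and 163. The groups of both members overlapped, where 2.03% of all genes did not. Without WT repeat 1 VIM-AS1 lay at 1.47, and it also turned positive without either hNABP1 KO repeat 2 or 3 (0.36 and 0.41). Without any 1 hNABP2 KO library it lay at 0.02 to 0.18. Such a library enters this comparison only through the shared gene filter, spread and scaling. With 1 of them left out, 174 to 261 genes passed the filter in place of 129. With the repeat number as a block, 16 of the 13447 genes (0.119%) were called, and neither member was among them (VIM 1.11, SE 0.634, adjusted p = 0.994 by edgeR).

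Between the knockouts VIM-AS1 lay at a log2 fold change of -0.28 in hNABP2 KO over hNABP1 KO (SE 1.15, -2.84 to 2.27, adjusted p = 0.997 by edgeR), and VIM at -0.37 (SE 1.20, -2.73 to 1.99, adjusted p = 1.00 by edgeR). VIM was the higher in hNABP2 KO in repeat 1, with 868 against 541 CPM, and the lower in repeat 2, with 456 against 794 CPM, and in repeat 3, with 129 against 407 CPM. Again 0 of 129 (0%) and 0 of 13447 genes (0%) were called, with 0 and 248 unadjusted p under 0.05. The groups of both members overlapped, where 2.71% of all genes did not. Without hNABP1 KO repeat 1 VIM-AS1 lay at 1.21. With the block, 19 genes (0.141%) were called and neither member was among them (VIM -0.79, SE 0.651, adjusted p = 0.998 by edgeR).

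The antisense share did not separate the genotypes either. With NTP it averaged 95.0 ± 3.86% in hNABP2 KO, 88.7 ± 14.8% in hNABP1 KO and 90.7 ± 14.7% in WT (SD, n = 3 each). The exact permutation p, two-sided, was 1 for hNABP2 KO against WT and 0.6 for hNABP1 KO against WT, where 3 against 3 libraries cannot go below 0.1. The difference in share turned in sign without WT repeat 3 for hNABP2 KO minus WT (-4.18 points), without hNABP1 KO repeat 3, WT repeat 1 or WT repeat 2 for hNABP1 KO minus WT (6.48, 1.81 and 2.66 points) and without hNABP1 KO repeat 3 for hNABP2 KO minus hNABP1 KO (-2.19 points). Over the 18 permutation tests on CPM and share the smallest adjusted p was 0.96. These tests did not pair libraries by repeat number, so differences between repeats are part of the spread they measure. In repeat 3 alone, the deepest, the share was 90.5% in hNABP2 KO (84.8% to 94.6%), against 73.7% in WT (65.5% to 80.9%), intervals that do not meet, but this is 1 library each and has no replicate check. In repeats 1 and 2 the share in hNABP2 KO lay below that in WT, at 97.2% against 98.3% and 97.2% against 100%.

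The libraries with no NTP give the level found without extension. VIM-AS1 did not stand above it: with NTP it was lower in 3 of 3 repeats of hNABP2 KO and in 2 of 3 of hNABP1 KO and of WT. In hNABP2 KO it was at 0.308, 0.811 and 0.676 times the level with no NTP in repeats 1 to 3. In hNABP1 KO it was at 0.509, 1.07 and 0.0301 times, where the last value rests on the library that stands apart, and in WT at 0.641, 1.02 and 0.114 times. The group means were 15774 ± 14602 CPM with NTP and 40012 ± 51757 CPM with no NTP in hNABP2 KO, 21216 ± 22709 and 46600 ± 38639 CPM in hNABP1 KO, and 22150 ± 21478 and 31740 ± 32460 CPM in WT (SD, n = 3 each). The log2 fold changes were -0.97 in hNABP2 KO (SE 1.30, -3.69 to 1.75, adjusted p = 0.998 by edgeR), -0.53 in hNABP1 KO (SE 1.29, adjusted p = 0.982) and -0.33 in WT (SE 1.29, adjusted p = 0.997), and none passed. Each turned positive when repeat 1 with no NTP of its own genotype was left out (0.98, 0.22 and 0.93), and WT also without repeat 3 with NTP (0.23). Without the library that stands apart, hNABP1 KO lay at -0.75.

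VIM had few counts on both sides of this comparison. In hNABP2 KO its level with NTP was above that with no NTP in 3 of 3 repeats, at 868 against 474 CPM, 456 against 119 CPM and 129 against 113 CPM. In hNABP1 KO it was above in 2 of 3, at 541 against 597 CPM, 794 against 157 CPM and 407 against 293 CPM. In WT it was below in 3 of 3, at 751 against 1735 CPM, 0 against 190 CPM and 219 against 1611 CPM. Each of these values rests on 0 to 47 counts, and the groups overlapped in all genotypes, as they did for most genes (2.25%, 2.6% and 2.1% of all genes did not overlap in hNABP2 KO, hNABP1 KO and WT).

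The fitted log2 fold changes of VIM with NTP were 1.21 in hNABP2 KO (SE 1.20, -1.14 to 3.57), 1.06 in hNABP1 KO (SE 1.19, -1.28 to 3.40) and -1.80 in WT (SE 1.17, -4.09 to 0.48), with adjusted p of 1, 0.637 and 0.645 by edgeR. In the wider set the median of all genes was itself at 0.17, 1.70 and 0.93, so VIM lay above the median gene in hNABP2 KO and below it in hNABP1 KO and WT. EdgeR called 0 of 211 (0%) and 0 of 14907 genes (0%) in each genotype, with 2, 6 and 1 unadjusted p under 0.05 in the first set and 359, 927 and 163 in the second, in hNABP2 KO, hNABP1 KO and WT. With the repeat number as a block 5 of 211 genes (2.37%) and 1 of 14907 (0.00671%) were called in hNABP1 KO, and neither member was among them.

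An interaction term asks whether the difference made by NTP itself differs between a knockout and WT. For VIM the difference was 3.01 between hNABP2 KO and WT (SE 1.67, -0.27 to 6.30, adjusted p = 0.976 by edgeR), where the median gene lay at -0.87, and 2.86 between hNABP1 KO and WT (SE 1.67, -0.40 to 6.13, adjusted p = 1.00), where it lay at 0.24. For VIM-AS1 the differences were -0.63 (SE 1.82, adjusted p = 0.997) and -0.20 (SE 1.82, adjusted p = 0.999). None of the 4 passed. EdgeR called 0 of 211 and 0 of 14907 genes (0%) in each, with 0 and 1 unadjusted p under 0.05 in the first set and 248 and 365 in the second. With 1 library left out the VIM values stayed above 0, from 2.03 to 3.62 for hNABP2 KO and 2.19 to 3.53 for hNABP1 KO on the wider set. Where VIM then passed the expression filter, they were 1.66 to 2.84 and 2.26 to 4.19 on that set, and none passed the threshold. Those of VIM-AS1 did not: that of hNABP2 KO lay at 1.38 without hNABP2 KO with no NTP in repeat 1 and 0.67 without WT with NTP in repeat 1. That of hNABP1 KO lay at 1.20 without WT with NTP in repeat 1, 0.64 without hNABP1 KO with no NTP in repeat 1, and 0.04 to 0.14 without hNABP1 KO with NTP in repeat 2 or 3 or WT with no NTP in repeat 2 or 3.

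**Figure D3:**
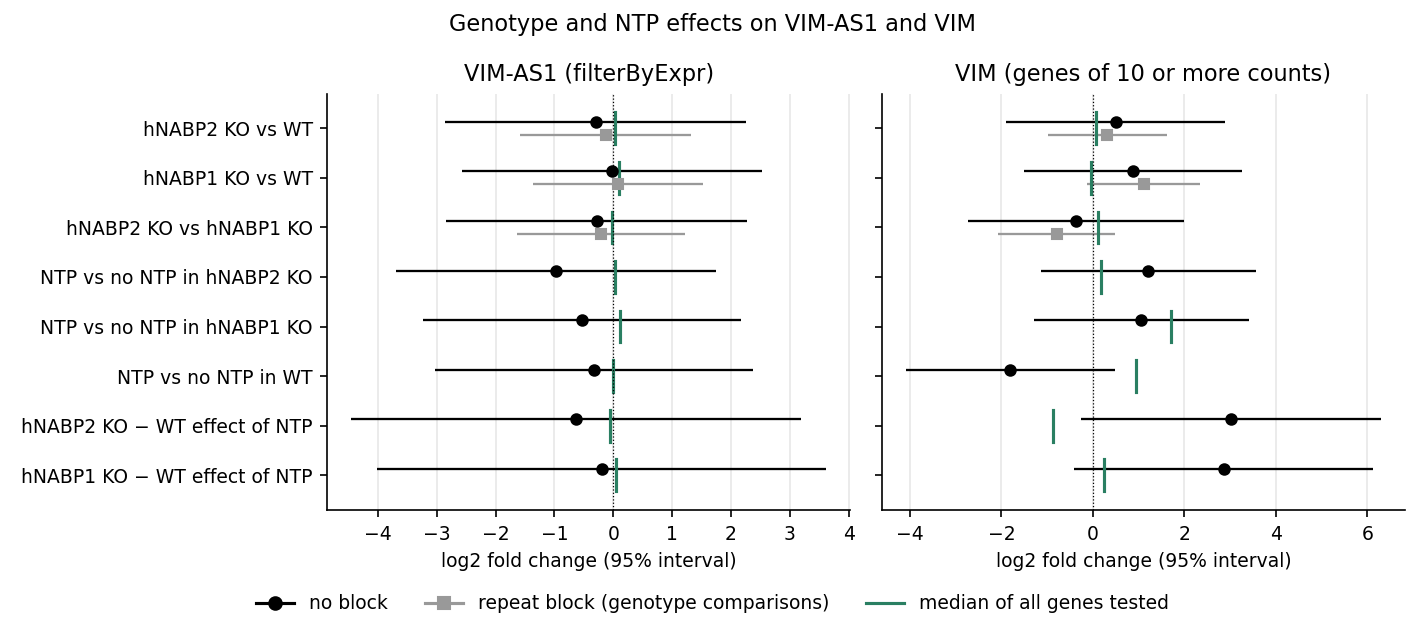
Log2 fold changes of VIM-AS1 (left) and VIM (right) for 8 comparisons, down the page, with 95% intervals, from edgeR; grey squares add the repeat number as a block for the 3 genotype comparisons, and green bars are the median of all genes tested. All intervals cross 0, and the largest values are the VIM interactions at 3.01 and 2.86.

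The share with NTP was lower than with no NTP in all 3 repeats of both knockouts. In hNABP1 KO the groups did not overlap, with 88.7 ± 14.8% with NTP and 99.2 ± 0.166% with no NTP (SD, n = 3 each). The exact permutation p was 0.1, the smallest these libraries can give (adjusted 0.96). In CPM 2.6% of all genes did not overlap, which is another measure, and how often the share of other pairs did not overlap was not computed. The difference was -10.5 points with the library that stands apart and without it, but -2.01 points without hNABP1 KO with NTP in repeat 3, and no groups of this size can pass. In hNABP2 KO the shares averaged 95.0 ± 3.86% with NTP and 97.7 ± 3.06% with no NTP, and in WT 90.7 ± 14.7% and 91.2 ± 12.3%.

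Genes whose level ran most like that of each member over the 18 libraries were named by Pearson's r of log2 CPM. This CPM was on TMM-scaled library sizes with a prior count of 2, and the genes ranked were those that passed the expression filter. For VIM-AS1 they were SNX22, a sorting nexin gene (r = 0.920), EZR-AS1 (0.918), MIR1282 (0.901), LOC100129034 (0.892) and LOC100129148 (0.886), where the median of 210 genes was -0.159. SNX22 overlaps PPIB and EZR-AS1 overlaps EZR on the opposite strand, and among the genes tested with a known strand 112 of 148 (75.7%) overlap a gene on the other strand. SNX22, the most alike by Pearson's r, had 756 counts and EZR-AS1 157. All of these libraries share repeats and depth, which VIM-AS1 follows, so the likeness is a description.

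For VIM the most alike were ACTB, the cytoplasmic actin gene (r = 0.813), the chaperone genes HSP90AB1 (0.794) and HSP90AA1 (0.729), the ribosomal precursor RNA45S5 (0.707) and EIF4B, a translation initiation factor gene (0.698), where the median of 211 genes was 0.0305. The members shared none of their 5. Ranked by Spearman's rho instead, 4 of the 5 genes of VIM-AS1 and 5 of the 5 of VIM were named again. The gene of VIM-AS1 that dropped out was SNX22, the first by Pearson's r, and ABALON took its place. In repeat 2 ACTB, with 165 counts in all, was at 0 in 5 of 6 libraries, and HSP90AB1, HSP90AA1 and EIF4B in 6 of 6, while RNA45S5 had 3573 to 12865 CPM there.

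**Figure D4:**
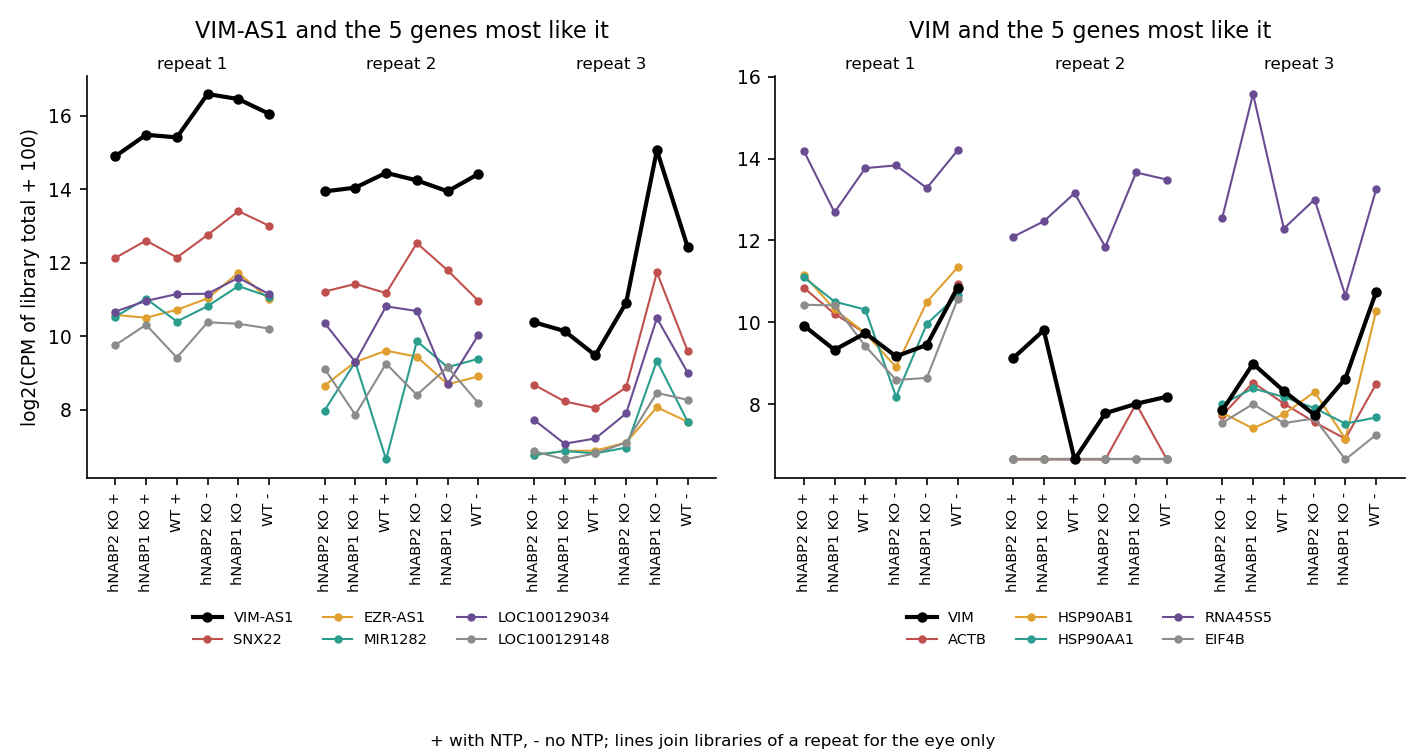
Level on the log2(CPM of the library total + 100) scale of VIM-AS1 (left, black) and VIM (right, black) with the 5 genes most like each (colours), in the 18 run-on libraries ordered by repeat; + is with NTP and - no NTP. In hNABP1 KO with no NTP in repeat 3, VIM-AS1 stands at 34192 CPM, against 615 to 5403 CPM in the other libraries of that repeat.

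Genes related to vimentin by role were counted in lists. Of 18 intermediate filament genes, VIM had 214 counts over all libraries, KRT8, a keratin gene, 197, LMNA, the lamin A/C gene, 94, and LMNB1 82. The desmin gene DES had 12 counts and the nestin gene NES 16, all in repeat 3. Of the 15 with 10 or more counts with NTP, 0 passed in either direction in hNABP2 KO over WT (0% of all genes), with a median log2 fold change of 0.34 where that of all genes was 0.07, and 0 in hNABP1 KO over WT, with 0.29 where that of all genes was -0.03. Linkers that tie filaments to other structures had more counts, led by PLEC, the plectin gene (664), FLNA, a filamin gene (337), and MACF1 (88). Of these 13 genes 0 passed in either knockout, with medians of 0.42 in hNABP2 KO and -0.27 in hNABP1 KO.

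The mesenchymal programme, 25 genes of the state that VIM marks, was led by the collagen gene COL5A1 (2806 counts), THBS1, the thrombospondin gene (202), FN1, the fibronectin gene (144), and MMP14, a membrane metalloprotease gene (78). Of 23 members tested 0 passed, with medians of 0.42 in hNABP2 KO and 0.01 in hNABP1 KO over WT. Among 16 factors listed as regulators of the VIM promoter, JUND, an AP-1 subunit gene, had 207 counts, SMAD2, a mediator of TGF-beta signals, 158, SP3, a GC box binding factor gene, 125 and FOSL2 97. None of the 16 passed without the block, with medians of 0.15 and 0.34. With the block JUND was called in hNABP1 KO over WT (log2 fold change 3.59, adjusted p = 0.0462 by edgeR), 1 of the 16, where 16 of all 13447 genes (0.119%) were, and 143 of its 207 counts were in hNABP1 KO with NTP in repeat 3. In each NTP comparison and interaction 0 members of the 4 lists passed without the block under TMM (0% of all genes). With the block 0 passed as well. For NTP in hNABP1 KO the block called 2.37% of the 211 genes and 0.00671% of the 14907.

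The ChIP lists ask where hNABP2 lies on the locus in WT cells. In repeat 1 the deposited annotation put 4 separate peaks at VIM promoters, and 21 of 7974 genes with a promoter peak (0.263%) had 4 or more. The strongest was chr10:17229253-17229693, with its summit 92 bases after the start of the main VIM transcript in the deposited annotation (ENST00000224237.9, from 17229278), a fold of 7.01 over local background, a -log10 p of 225 and a -log10 q of 218. By -log10 q it ranked 16th and by fold 223rd of 10055 peaks, whose medians were a fold of 3.21 and a -log10 q of 12.1. The values of peaks are the authors', as their caller gave them. The first peak, chr10:17228513-17229011, had a fold of 3.36 and a -log10 q of 20.7, and the last, chr10:17230370-17230604, 3.82 and 14.4.

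The remaining peak, chr10:17229910-17230150, lay at the start of VIM-AS1. It had a fold of 3.34 and a -log10 q of 10.9, with its summit 50 bases before the RefSeq start of VIM-AS1, and it covered 215 bases of the VIM-AS1 promoter window printed above. The window of the upstream RefSeq start of VIM overlapped none of the peaks. The first and the strongest peak thus lie in the stretch that both genes share, the peak at the VIM-AS1 start runs over its end, and the last lies in VIM alone, beyond the VIM-AS1 start.

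In ChIP repeat 2, with 2832 peaks, the locus had no peak, and the nearest lay 217 kb away. Of the 16 strongest peaks of repeat 1 by -log10 q, the 16th being that of VIM, 7 overlapped a peak of repeat 2. Of the 100 strongest, 36 did, and of all 10055, 2277 (22.6%). The peaks at VIM rest on 1 of the 2 repeats. Values of the IgG libraries were not analysed here.

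**Figure D5:**
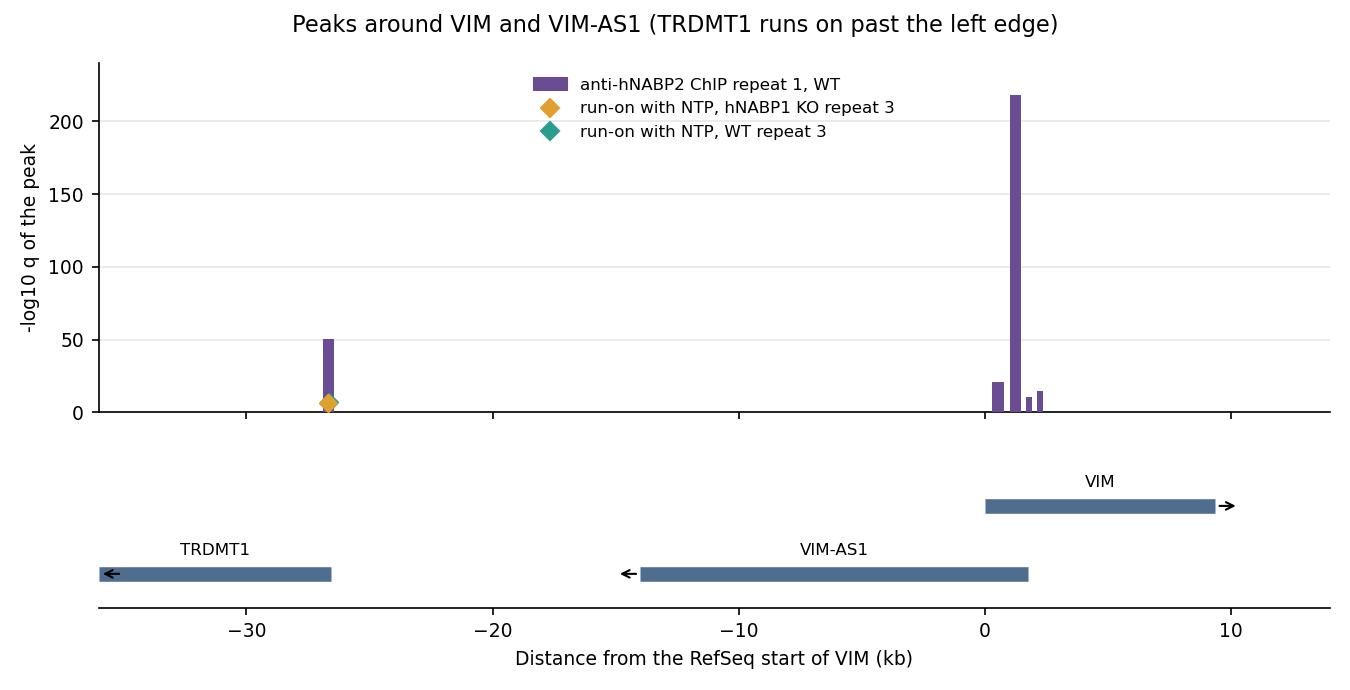
Peaks within 20 kb of VIM or VIM-AS1 by distance from the RefSeq start of VIM (x axis, kb) and their -log10 q (y axis), for anti-hNABP2 ChIP repeat 1 (purple bars, as wide as the peak) and run-on with NTP (diamonds), above the annotated spans of the genes with arrows in the direction of transcription. The tallest bar, 218, stands 1129 bases after the RefSeq start of VIM, and the run-on peaks stand at TRDMT1.

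The run-on lists held no peak in VIM or VIM-AS1 in any of the 9 libraries with NTP, whose lists had 94 to 9965 peaks. Only genes whose symbol is in the RefSeq annotation were checked for peaks, and among these VIM-AS1 was in the 20 most counted in all 9. Over all genes it ranked 24th in hNABP1 KO with NTP in repeat 3. In that library, with 9965 peaks, 19 of the 20 most counted RefSeq genes had a peak and VIM-AS1 was the exception. In the other lists 0 to 4 of the 20 had one, so a missing peak says little there. Within 20 kb of the pair, hNABP1 KO repeat 3 had a peak at chr10:17201423-17201824 (fold 6.67, -log10 q 6.77) and WT repeat 3 one at chr10:17201383-17201765 (fold 7.35, -log10 q 6.91). Both lie at the start of TRDMT1, about 12.4 kb beyond the end of VIM-AS1, where ChIP repeat 1 also had a peak (chr10:17201340-17201798, fold 4.88, -log10 q 50.5). The 4 DRIP lists, with 13 and 167 peaks in hNABP2 KO and 173 and 107 in WT, held none within 20 kb, and the nearest lay 2061 kb away. With so few peaks per list, an RNA:DNA hybrid at VIM was not detectable here, which does not show that there is none.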

How the data were processed

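The authors deposited a table of read counts for 26475 genes in the 18 run-on libraries and peak lists with a score, a fold, a -log10 p and a -log10 q per peak. Per the submitters' processing notes the build was hg38 and the tools included MACS2 2.2.1, Bowtie2 2.3.5, cutadapt 1.18 and SAMtools. The sources used here name neither the counting tool nor its strand setting. Library totals were 5272 to 164357 counts, so a gene at 0 counts is known only to within 3 counts of its total.

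CPM values were computed here on library totals, except where TMM-scaled library sizes are named. Counts were tested with edgeR 4.0.16 (quasi-likelihood, TMM, Benjamini-Hochberg, adjusted p under 0.05) in R 4.3.3, on genes that passed filterByExpr. VIM did not pass and was read from the same fit on genes with 10 or more counts. The genotype fit used the 9 libraries with NTP and the NTP fit all 18. DESeq2 1.42.0, limma voom (limma 3.58.1), other scalings, a replicate block and left-out libraries were alternatives, and the fits were tested on simulated data. There the fit with the block on the filterByExpr set also called unchanged genes, so its calls on the data may include such genes. In the 9-library fit same-numbered libraries deviated together (r from 0.563 to 0.843 over 9 pairs, -0.690 to 0.119 over 18 other pairs), so the repeat numbers were taken to pair them; the pairing comes from the data, since the labels give a number and no shared day. CPM and shares were compared with exact permutation tests that did not pair libraries by repeat number. Intervals of shares and library percentages are exact 95% binomial ones and cover counting error only. Those of log2 fold changes are 95% intervals from the SE of the fit and take in the spread between libraries. In edgeR that SE was derived from the log2 fold change and its F statistic.

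Peaks were read as deposited, with starts made 1-based, and each list belongs to 1 library. Promoter sequences are those of RefSeq, GRCh38.p14, matched by symbol for both genes. Named genes were the 5 most alike each member, the 5 pairs and up to 4 genes per list with most counts, and the neighbours of VIM. Some of the genes this rule picks are not reported here. The members and lists were chosen with earlier results of these data known, and the motifs after the promoter sequences had been seen. IgG and RNase H libraries were not analysed here.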

Additional observations from a re-analysis of the deposited data

Results flagged for a closer look

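The difference in VIM level with NTP minus no NTP lay above 0 in each repeat of hNABP2 KO and below 0 in each repeat of WT. The mean difference was 249 CPM in hNABP2 KO and -855 CPM in WT, 1104 CPM apart (n = 3 each). This opposite direction was not itself tested on CPM. It sets libraries side by side by repeat number, and the numbers were not taken to pair the libraries of the NTP fit. The edgeR interaction for VIM was 3.01 on the log2 scale (SE 1.67, adjusted p = 0.976) and did not pass. The WT libraries behind it had 9, 0 and 36 VIM counts with NTP and 16, 1 and 31 with no NTP in repeats 1 to 3. Those of hNABP2 KO had 17, 3 and 15 with NTP and 5, 1 and 9 with no NTP. In repeat 3 of hNABP2 KO the levels were 129 and 113 CPM.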

How the results depend on the processing

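Of 106 log2 fold changes of the members under other settings, 97 kept their direction, 9 turned and 0 passed the threshold; of 234 with 1 library left out, 211 kept it, 23 turned and 0 passed. VIM-AS1 in hNABP1 KO over WT turned to 0.051 with RLE size factors, 0.092 without TMM, 0.051 in DESeq2, 0.073 with the replicate block, 0.074 on genes with 10 or more counts and 0.33 with both of these. With the replicate block on genes with 10 or more counts, VIM-AS1 in hNABP2 KO over WT lay at 0.14 and the interaction of hNABP2 KO at 0.072. The cause was not tested.

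With 1 library left out, VIM-AS1 ranged from -1.71 to 1.14 in hNABP2 KO over WT, -1.56 to 1.47 in hNABP1 KO over WT and -1.80 to 1.21 in hNABP2 KO over hNABP1 KO. For NTP it ranged from -2.29 to 0.98 in hNABP2 KO, -1.96 to 0.22 in hNABP1 KO and -1.72 to 0.93 in WT, and for the interactions from -1.98 to 1.38 and -1.62 to 1.20. VIM ranged from -0.63 to 1.21 in hNABP2 KO over WT on genes with 10 or more counts. Of 24 differences in CPM or share under other settings 1 turned, VIM in hNABP2 KO minus WT at -65.9 CPM on TMM-scaled library sizes; of 108 with 1 library left out, 22 turned. In those, VIM-AS1 ranged from -17144 to 4333 CPM (hNABP2 KO minus WT), -13228 to 9775 (hNABP1 KO minus WT), -15535 to 6852 (hNABP2 KO minus hNABP1 KO), -43332 to 5215 (NTP, hNABP2 KO) and -22759 to 8542 (NTP, WT). VIM ranged from -30.8 to 375 CPM (hNABP2 KO minus WT) and -288 to 81.3 CPM (hNABP2 KO minus hNABP1 KO). The share ranged from -4.18 to 8.95, -10.5 to 6.48 and -2.19 to 11.4 points in the 3 genotype comparisons and -7.65 to 7.92 points for NTP in WT.

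Without the block calls were 0, except with RLE size factors on genes with 10 or more counts, where 3 of 14907 genes were called for NTP in hNABP1 KO and 1 in WT, neither member among them. With the replicate block 16 and 19 genes were called on the wider set in hNABP1 KO over WT and in hNABP2 KO over hNABP1 KO, and for NTP in hNABP1 KO 5 of 211 genes (2.37%) and 1 on the wider set. The numbers were not taken to pair the libraries of the NTP fit, where same-numbered libraries correlated at 0.0154 to 0.831 over 45 pairs and others at -0.674 to 0.498 over 90. Leaving out hNABP1 KO with no NTP in repeat 3 as well, an alternative chosen after seeing the data, the block called 1 gene for NTP in WT (9 on the wider set), and VIM-AS1 in the interaction of hNABP1 KO lay at 0.49. VIM failed filterByExpr with all libraries and passed it in some fits with 1 left out, where it lay at -0.72 to 0.21 in hNABP2 KO over WT and did not pass the threshold in any comparison. Run-on peaks near the pair numbered 2 within 20 kb and 0 within 5 kb. VIM had 0 to 17 counts per library in repeats 1 and 2, which bounds the precision of its values there.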
